A study of Mus musculus with 143 samples.

Results

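The 33 genes described here code for transcription factors that pattern the forebrain and specify striatal neurons in the embryo. They were taken as a fixed list of symbols, from Dlx1 to Sp8, and all 33 were found among the 41128 genes of the count table. Each of the 33 had reads in all 143 libraries. RNA was measured in dissected striatum, 1 poly(A)-selected library per mouse. The mice were zQ175 knock-in animals, a model of Huntington's disease whose own Htt gene carries an expanded CAG repeat, or wild type. The labels do not say whether 1 or both copies of Htt carry the repeat. Mice of both genotypes received either HTT-10150, a short RNA duplex that silences Htt (siRNA), or NTC, a non-targeting siRNA, or were left untreated, and the labels state no route or dose. The 3 strategies are written as months: in 2[4]6 treatment was at 2 and collection at 6 months, in 6[4]10 treatment was at 6 and collection at 10 months, and in 2+6[8]10 treatment was at 2 and again at 6 months and collection at 10 months. Every group held 4 female and 4 male mice, apart from 2 female and 5 male wild-type mice on HTT-10150 in 2+6[8]10. Each library came from its own mouse, and p-values measure the spread between these mice, taken as independent. Library names carry a middle number that several mice share, mostly within a genotype and across treatments. The labels do not say what it stands for, and no fit used it.

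Transcription factors of this kind act in sequence. In the ventral telencephalon, Gsx2 marks progenitors, Dlx1 and Dlx2 and then Dlx5 and Dlx6 drive the GABAergic fate, and Meis2, Six3, Ebf1, Isl1, Foxp1 and Bcl11b take part in making and keeping the medium spiny neuron, the projection neuron that forms most of the striatum. Nkx2-1, Lhx6 and Lhx8 belong to the medial ganglionic eminence, the source of striatal interneurons and cholinergic neurons. Pax6, Emx2, Lhx2 and Otx1 pattern the dorsal telencephalon, from which the cortex grows, and Sox4 and Sox11 are active in young neurons before they mature.

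Sequence around the start of transcription is shown for 6 members on which the results below turn: the paralogues Meis2 and Meis1, the paralogues Bcl11b and Bcl11a, and Emx2 and Sox11, the members with the largest genotype differences. The windows come from RefSeq on GRCm38.p6, run 5′ to 3′ on the strand of the gene from 250 bases before to 50 bases after the start, and have each CG dinucleotide in capitals. The Meis2 window is chr2:116064570-116064869 on the minus strand and the Meis1 window is chr11:19018920-19019219 on the minus strand. The Bcl11b window is chr12:108003365-108003664 on the minus strand and the Bcl11a window is chr11:24080445-24080744 on the plus strand. The Emx2 window is chr19:59458440-59458739 on the plus strand and the Sox11 window is chr12:27342669-27342968 on the minus strand.
Meis2: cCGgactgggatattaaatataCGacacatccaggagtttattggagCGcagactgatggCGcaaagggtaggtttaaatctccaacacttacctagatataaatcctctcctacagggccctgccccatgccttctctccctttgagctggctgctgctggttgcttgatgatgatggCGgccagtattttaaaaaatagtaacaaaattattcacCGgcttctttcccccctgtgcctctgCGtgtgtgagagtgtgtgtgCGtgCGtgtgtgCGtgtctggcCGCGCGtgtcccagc
Meis1: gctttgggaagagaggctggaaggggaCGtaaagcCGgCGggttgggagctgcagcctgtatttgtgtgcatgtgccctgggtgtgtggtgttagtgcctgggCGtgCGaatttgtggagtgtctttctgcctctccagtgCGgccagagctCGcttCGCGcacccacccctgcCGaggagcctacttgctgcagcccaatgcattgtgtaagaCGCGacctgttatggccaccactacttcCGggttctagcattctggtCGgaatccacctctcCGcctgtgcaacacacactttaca
Bcl11b: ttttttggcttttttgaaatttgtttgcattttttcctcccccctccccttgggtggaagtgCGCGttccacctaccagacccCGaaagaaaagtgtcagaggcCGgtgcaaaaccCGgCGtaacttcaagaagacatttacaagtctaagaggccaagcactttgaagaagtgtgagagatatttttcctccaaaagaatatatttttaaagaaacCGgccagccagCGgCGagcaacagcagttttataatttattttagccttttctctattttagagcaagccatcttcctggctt
Bcl11a: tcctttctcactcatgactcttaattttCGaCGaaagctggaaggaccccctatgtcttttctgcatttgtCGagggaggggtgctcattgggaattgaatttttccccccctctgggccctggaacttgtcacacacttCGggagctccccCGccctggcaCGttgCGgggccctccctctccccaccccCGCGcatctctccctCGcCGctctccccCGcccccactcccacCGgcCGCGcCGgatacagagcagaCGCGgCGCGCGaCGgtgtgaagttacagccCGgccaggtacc
Emx2: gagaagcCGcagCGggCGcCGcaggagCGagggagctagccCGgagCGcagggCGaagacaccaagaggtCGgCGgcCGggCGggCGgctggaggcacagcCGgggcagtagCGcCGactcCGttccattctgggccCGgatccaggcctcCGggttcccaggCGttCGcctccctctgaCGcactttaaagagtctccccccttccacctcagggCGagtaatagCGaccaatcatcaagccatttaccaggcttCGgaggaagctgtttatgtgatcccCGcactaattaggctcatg
Sox11: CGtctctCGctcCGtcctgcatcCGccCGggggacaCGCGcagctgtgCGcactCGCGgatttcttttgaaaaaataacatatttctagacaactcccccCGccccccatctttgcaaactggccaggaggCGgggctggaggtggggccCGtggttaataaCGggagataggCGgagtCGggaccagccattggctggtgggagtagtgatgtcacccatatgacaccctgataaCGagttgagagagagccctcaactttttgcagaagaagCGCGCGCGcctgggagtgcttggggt
The Meis2 window has 13 CG dinucleotides and the Meis1 window 15. The Bcl11b window has 9 and the Bcl11a window 23. The Emx2 window has 26 and the Sox11 window 21, all against a median of 7 over all 32851 mouse windows of the same length. RefSeq windows were found for 25 of the 33 members, 37 windows in all, with a median of 16. The letters TAATTA, the core of a homeodomain site, occur on either strand in 4 of the 37 windows (10.8%), the Emx2 window among them, and in 5.29% of all windows. The letters TGACAG, the core of a Meis site, occur on either strand in 5 of the 37 (13.5%) and in 19.2% of all windows. These are descriptions of letters, not sites. No window was matched for Foxp2, Ikzf2, Zfhx4, Dlx5, Dlx6, Pbx3, Tshz1 and Otx1.

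Per length of transcript, in TPM (transcripts scaled to the same sum in every library), the most abundant members in untreated wild-type mice of 2[4]6 were Meis2 with a median of 351 TPM, Foxp1 with 179 TPM and Bcl11b with a mean of 138 TPM. Dlx6 had 68.5 TPM, Six3 63.4 TPM, Mef2c 57.2 TPM, Pbx3 48.7 TPM and Bcl11a 48.2 TPM. At the other end were Emx2 with 5.33 TPM, Dlx2 with 4.58 TPM, Sox11 with 4.38 TPM, Ikzf1 with 4.25 TPM, Zfhx3 with 3.76 TPM, Zfhx4 with 2.95 TPM, Otx1 with 1.67 TPM, Ikzf2 with 0.765 TPM, Sp8 with 0.576 TPM and Gsx2 with 0.433 TPM.

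All other levels here are library-scaled counts (CPM, with trimmed-mean-of-M-values scaling), and where 3 values are given for a group they are its lowest, median and highest library. Fold changes are log2 values of zQ175 over wild type or of treated over control mice, with their standard error (SE), from edgeR's quasi-likelihood test, and a gene is called where its p, adjusted by the Benjamini-Hochberg method over every gene tested, is under 0.05. Of the 33 members, 32 passed the filter on low counts in each strategy. Gsx2 did not. Total counts were 12.55 M to 29.19 M per library. Htt was called lower under HTT-10150 than under NTC in 2+6[8]10, with medians of 108 CPM under HTT-10150 and 138 CPM under NTC in zQ175 mice, and of 125 CPM under HTT-10150 and 162.4 CPM under NTC in wild-type mice. Its log2 fold change there was -0.36 ± 0.06 in zQ175 and -0.49 ± 0.06 in wild-type mice (SE; edgeR, adjusted p = 0.00035 and 5e-06). Htt was not called in 6[4]10, at -0.32 ± 0.08 and -0.34 ± 0.08 (adjusted p = 0.6 and 0.82), or in 2[4]6, at -0.01 ± 0.05 and -0.26 ± 0.05 (adjusted p = 0.99 and 0.057), in zQ175 and wild-type mice, and the difference between strategies was not tested. The 9 medium spiny neuron markers on the list summed to 3101 to 6392 CPM per zQ175 library and to 8084 to 12090 CPM per wild-type library. Every library therefore held these markers, although no other tissue served as a reference. The lowest sum, 3101 CPM, was in a zQ175 library on HTT-10150 of 6[4]10, where the group median was 5611 CPM. A limit of 300 CPM on summed cortical markers or of 1000 CPM on summed ependyma and choroid plexus markers was passed by 29 of the 143 libraries. Each count of members was also taken without these 29.

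Untreated zQ175 striatum differed from wild-type striatum in both directions among these factors. Bcl11b, Foxp1, Meis2 and Lhx2 fell in each strategy, and Bcl11a, Foxp4, Meis1, Sox11 and Pax6 rose in each. Emx2 rose in 6[4]10 and 2+6[8]10. Among other factors of spiny neurons, Isl1 rose in 2[4]6 and 6[4]10 and Ebf1 in 6[4]10, and Foxp2, like Foxp4 a paralogue of Foxp1, was not called. In 2[4]6, 7 members were called higher and 5 lower, 37.5% of the 32 tested, where 32.6% of all genes were called (15.3% higher and 17.2% lower). In 6[4]10, 11 were called higher and 4 lower, 46.9% against 36.1% of all genes (19.2% higher and 17% lower). In 2+6[8]10, 7 were called higher and 7 lower, 43.8% against 35.4% of all genes (17.1% higher and 18.3% lower). In 6[4]10, 7 members were called higher without replicate 3. These shares are not far from the background, so a call by itself sets no member apart. The median absolute log2 fold change of the members was 0.17 in each strategy, against 0.12, 0.13 and 0.12 over all genes tested in 2[4]6, 6[4]10 and 2+6[8]10. In bulk tissue, fewer cells of a type and less RNA per cell cannot be told apart. The sums of medium spiny neuron markers given above fell in the same animals, and their part in the results below was not tested.

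The genotypes were compared in 9 sets of separate animals, 3 strategies by 3 treatments. NTC-treated mice had 11 members higher and 5 lower in 2[4]6 (16 of 32). Of all genes, 34.4% were called there, 15.9% higher and 18.5% lower. They had 11 and 5 in 6[4]10, where 32.8% of all genes were called, 16.8% higher and 15.9% lower, and 6 and 8 in 2+6[8]10, where 42.1% were, 20.7% higher and 21.4% lower. Mice given HTT-10150 had 9 higher and 5 lower in 2[4]6 (14 of 32). Of all genes, 33.5% were called there, 16.1% higher and 17.4% lower. They had 9 and 5 in 6[4]10, where 34.7% of all genes were called, 17.8% higher and 16.9% lower, and 7 and 8 in 2+6[8]10, where 36.2% were, 17.5% higher and 18.7% lower. In 2+6[8]10, NTC-treated mice had 5 lower without replicate 1, and mice given HTT-10150 had 4 higher without replicate 2. Bcl11b, Foxp1, Meis2 and Lhx2 were called lower in 9 of 9 sets, and Sox11, Foxp4 and Bcl11a higher in 9 of 9. These 7 are 21.9% of the 32 members tested, where 12.6% of 15431 genes were called one way in all 9 sets (5.06% higher and 7.53% lower). No member was called in both directions, and 1.56% of all genes were. A further 16 members were called in 1 to 8 sets and 9 in none, where 26.5% of all genes were called in none. Replicate numbers 1 to 4 were left out in turn, from each sex and group that held them. Wild-type mice on HTT-10150 in 2+6[8]10 had no female 3 or 4, and their male 5 was never left out. Sox11, Bcl11b, Foxp1 and Meis2 were still called in 9 of 9 whichever number was left out, whereas Lhx2, Bcl11a and Foxp4 each lost at least 1 call. Without the 29 libraries with cortical or choroid markers, Foxp4 was no longer called in 9 of 9. Emx2 and Meis1 were then called higher in 9 of 9, and the 4 lower members stayed the same.

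**Figure D1:**
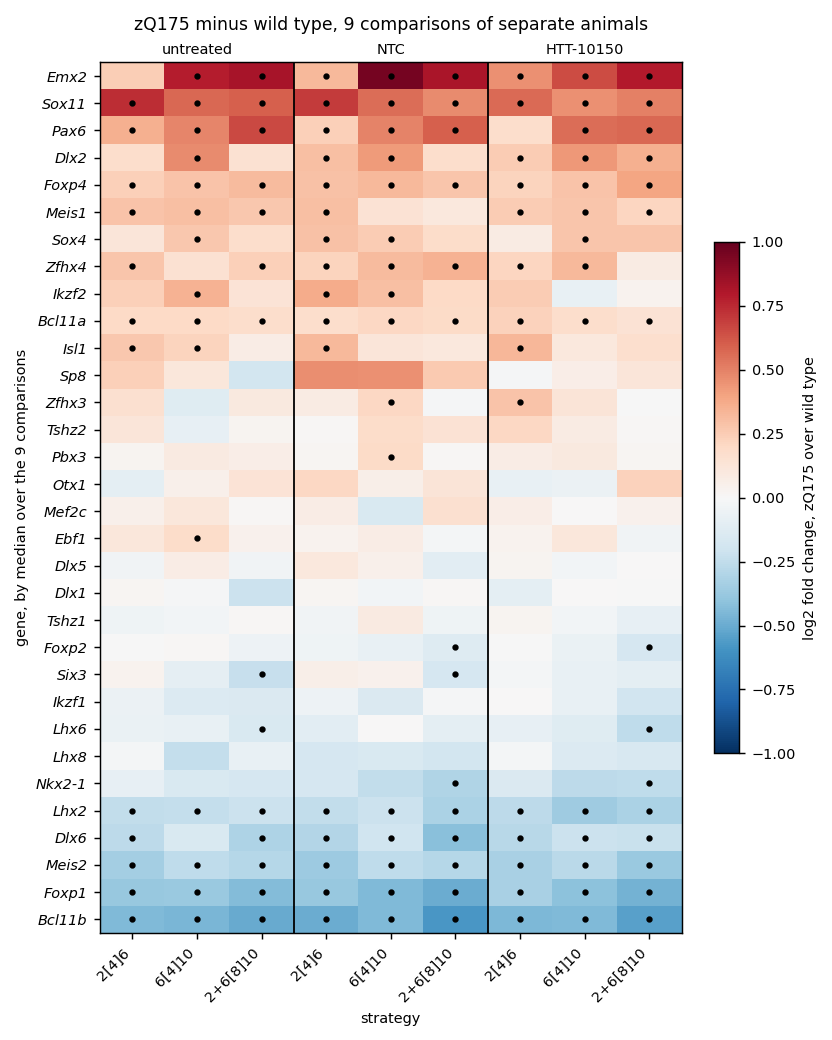
Log2 fold change of zQ175 over wild type for the 32 tested members (rows, ordered by their median) in 9 comparisons of separate animals (columns, strategy within treatment). Red is higher and blue lower in zQ175, and a dot marks an adjusted p under 0.05. Sox11, Foxp4 and Bcl11a are dotted and red in all 9 columns, and Bcl11b, Foxp1, Meis2 and Lhx2 dotted and blue in all 9.

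Bcl11b codes for a zinc finger factor (also called Ctip2) that medium spiny neurons need to differentiate. Bcl11b had 278, 310.2 and 335 CPM in zQ175 mice of 2[4]6, against 369, 423 and 465 CPM in wild-type mice. Bcl11b in 6[4]10 ran at 257, 287 and 318 CPM in zQ175 mice, against 297, 406 and 429 CPM in wild-type mice. Bcl11b in 2+6[8]10 ran at 257, 298 and 316 CPM in zQ175 mice, against 382, 407.5 and 448 CPM in wild-type mice. The genotypes did not overlap in 2[4]6 and 2+6[8]10, and in 6[4]10 a single wild-type library at 297 CPM lay inside the zQ175 range. Bcl11b fell, with log2 fold changes of -0.44 ± 0.06 in 2[4]6, -0.45 ± 0.07 in 6[4]10 and -0.50 ± 0.05 in 2+6[8]10 (SE; edgeR, adjusted p = 6.4e-08, 5.4e-07 and 1.3e-12). Over the 9 sets its log2 fold change ran from -0.58 to -0.44.

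Foxp1, a forkhead factor of spiny neurons of both striatal output pathways, also fell. Foxp1 had 249, 288 and 318.5 CPM in zQ175 mice of 2[4]6, against 335, 371 and 405 CPM in wild-type mice. Foxp1 in 6[4]10 ran at 263, 284 and 306 CPM in zQ175 mice, against 317, 376 and 389.8 CPM in wild-type mice. Foxp1 in 2+6[8]10 ran at 262, 291 and 322 CPM in zQ175 mice, against 373, 398 and 428 CPM in wild-type mice. Every untreated zQ175 library was below every wild-type library of its strategy. Foxp1 fell, with log2 fold changes of -0.38 ± 0.06 in 2[4]6, -0.37 ± 0.05 in 6[4]10 and -0.43 ± 0.05 in 2+6[8]10 (SE; edgeR, adjusted p = 9.1e-07, 1.2e-07 and 4.2e-11), and ran from -0.50 to -0.33 over the 9 sets.

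Meis2 codes for a homeodomain cofactor of the TALE class that starts in embryonic striatal progenitors and stays on in spiny neurons. Meis2 had 364, 388 and 418 CPM in zQ175 mice of 2[4]6, against 463, 489 and 524.5 CPM in wild-type mice. Meis2 in 6[4]10 ran at 345, 384 and 401 CPM in zQ175 mice, against 393, 467 and 503 CPM in wild-type mice. Meis2 in 2+6[8]10 ran at 368, 391 and 427 CPM in zQ175 mice, against 441, 481 and 508 CPM in wild-type mice. The genotypes were apart in 2[4]6 and 2+6[8]10 and met between 393 and 401 CPM in 6[4]10. Meis2 fell, with log2 fold changes of -0.34 ± 0.05 in 2[4]6, -0.25 ± 0.05 in 6[4]10 and -0.29 ± 0.04 in 2+6[8]10 (SE; edgeR, adjusted p = 2.8e-08, 3e-05 and 4e-09), and ran from -0.37 to -0.25 over the 9 sets. Counting members whose untreated genotypes did not overlap gave 5 in 2[4]6 (Bcl11b, Foxp1 and Meis2 below wild type, Sox11 and Bcl11a above), 3 in 6[4]10 (Foxp1 below, Sox11 and Emx2 above) and 7 in 2+6[8]10 (Bcl11b, Foxp1, Meis2 and Dlx6 below, Sox11, Pax6 and Emx2 above). The share of all genes without overlap was 8.79%, 8.83% and 9.22% in these strategies. Among NTC-treated mice the count was 4, 6 and 8, where 8.08%, 8.16% and 12.3% of all genes did not overlap, and among mice given HTT-10150 it was 2, 7 and 8, where 6.34%, 9.33% and 11% did not.

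Lhx2, a LIM homeodomain factor best known from the patterning of the cortex, also fell. Lhx2 had 25.1, 28.2 and 35.2 CPM in zQ175 mice of 2[4]6, against 32.4, 34.6 and 37.5 CPM in wild-type mice. Lhx2 in 6[4]10 ran at 24.8, 26.7 and 30.8 CPM in zQ175 mice, against 29.3, 31.7 and 36.2 CPM in wild-type mice. Lhx2 in 2+6[8]10 ran at 25.1, 27.6 and 31.1 CPM in zQ175 mice, against 26.5, 31.7 and 38.5 CPM in wild-type mice. The zQ175 medians were lower in all 3 strategies, and the ranges overlapped in each. Its log2 fold changes were -0.25 ± 0.07 in 2[4]6, -0.23 ± 0.06 in 6[4]10 and -0.22 ± 0.06 in 2+6[8]10 (SE; edgeR, adjusted p = 0.0065, 0.00067 and 0.0015). The call in 2[4]6 ended without replicate 3, at -0.18 (edgeR, adjusted p = 0.12), and without replicate 4, at -0.20 (adjusted p = 0.058). Residual Lhx2 showed no correlation past the threshold with summed cortical markers, with Pearson's r of 0.188, 0.164 and 0.260 and Spearman's rho of 0.204, 0.159 and 0.155 in the 3 strategies over 47 or 48 libraries (permutation test, adjusted p = 0.26, 0.33 and 0.11).

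**Figure D2:**
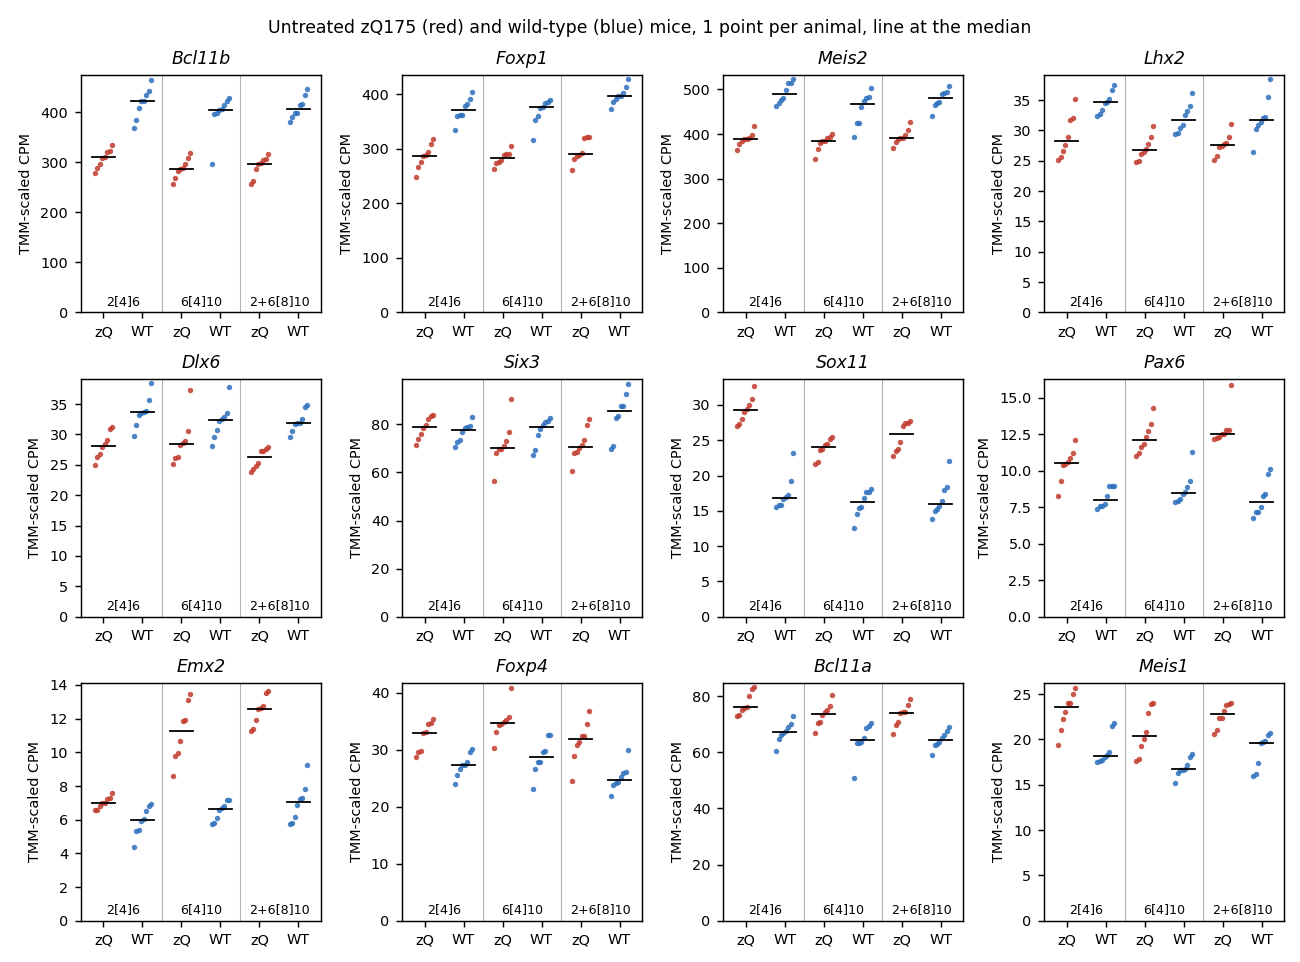
TMM-scaled CPM of 12 members in untreated mice, 1 point per animal with a line at the median, zQ175 (zQ, red) left of wild type (WT, blue) in each strategy, 8 animals per group. The Foxp1 points of the genotypes do not meet in any strategy, with zQ175 at most 318.5, 306 and 322 CPM in 2[4]6, 6[4]10 and 2+6[8]10 and wild type at least 335, 317 and 373 CPM.

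The Dlx genes lie in 2 convergent pairs, Dlx1 with Dlx2 on chromosome 2 and Dlx5 with Dlx6 on chromosome 6, and their members did not move together. Dlx6, which acts late in GABAergic neurons, was the member of the family that fell. Dlx6 had 24.9, 28.1 and 31.3 CPM in zQ175 mice of 2[4]6, against 29.7, 33.6 and 38.4 CPM in wild-type mice. Dlx6 in 6[4]10 ran at 25.2, 28.4 and 37.3 CPM in zQ175 mice, against 28.1, 32.3 and 37.9 CPM in wild-type mice. Dlx6 in 2+6[8]10 ran at 23.8, 26.3 and 27.9 CPM in zQ175 mice, against 29.6, 31.8 and 34.9 CPM in wild-type mice. The genotypes were apart in 2+6[8]10 only. Dlx6 had log2 fold changes of -0.26 ± 0.06 in 2[4]6, -0.15 ± 0.07 in 6[4]10 and -0.31 ± 0.05 in 2+6[8]10 (SE; edgeR, adjusted p = 0.00046, 0.087 and 4.9e-06), and was called lower in 8 of the 9 sets. A zQ175 library of 6[4]10 at 37.3 CPM stood above the next at 30.6 CPM.

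Dlx5, its neighbour, was called in none of the 9 sets. Dlx5 had 17.6, 20.3 and 21.7 CPM in zQ175 mice of 2[4]6, against 16.8, 20.9 and 24.9 CPM in wild-type mice. Dlx5 in 6[4]10 ran at 18.6, 20.2 and 23.8 CPM in zQ175 mice, against 16.5, 19.1 and 22.2 CPM in wild-type mice. Dlx5 in 2+6[8]10 ran at 17.3, 18.7 and 19.7 CPM in zQ175 mice, against 16.8, 18.6 and 21.03 CPM in wild-type mice. The ranges overlapped throughout. Dlx5 had log2 fold changes of -0.03 ± 0.06 in 2[4]6, 0.08 ± 0.07 in 6[4]10 and -0.03 ± 0.05 in 2+6[8]10 (SE; edgeR, adjusted p = 0.73, 0.38 and 0.67).

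Dlx2, which acts in progenitors ahead of Dlx5 and Dlx6, was higher. Dlx2 had 4.35, 5.53 and 7.68 CPM in zQ175 mice of 2[4]6, against 4.31, 5.06 and 6.08 CPM in wild-type mice. Dlx2 in 6[4]10 ran at 4.46, 5.76 and 8.56 CPM in zQ175 mice, against 3.72, 4.41 and 5.17 CPM in wild-type mice. Dlx2 in 2+6[8]10 ran at 4.11, 5.08 and 6.29 CPM in zQ175 mice, against 3.35, 4.63 and 5.88 CPM in wild-type mice. The genotypes overlapped in each strategy. Dlx2 had log2 fold changes of 0.18 ± 0.10 in 2[4]6, 0.47 ± 0.12 in 6[4]10 and 0.15 ± 0.12 in 2+6[8]10 (SE; edgeR, adjusted p = 0.16, 0.0017 and 0.37), was above 0 in 9 of the 9 sets and was called higher in 6.

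Dlx1, the partner of Dlx2, was called in none of the 9 sets. Dlx1 had 16.9, 18.6 and 23.1 CPM in zQ175 mice of 2[4]6, against 17.01, 19.1 and 21.1 CPM in wild-type mice. Dlx1 in 6[4]10 ran at 13.6, 18.2 and 22.8 CPM in zQ175 mice, against 14.5, 19.1 and 21.9 CPM in wild-type mice. Dlx1 in 2+6[8]10 ran at 14.3, 16.96 and 20.5 CPM in zQ175 mice, against 15.5, 19.3 and 23.9 CPM in wild-type mice. The ranges overlapped in each strategy, and in 2+6[8]10 the lowest, median and highest zQ175 libraries each lay below their wild-type counterparts. Dlx1 had log2 fold changes of 0.02 ± 0.07 in 2[4]6, -0.01 ± 0.09 in 6[4]10 and -0.22 ± 0.09 in 2+6[8]10 (SE; edgeR, adjusted p = 0.86, 0.93 and 0.056). The fold change in 2+6[8]10 passed the threshold without replicate 2, at -0.27 (edgeR, adjusted p = 0.040). Dlx1 shares 335 exon bases with its antisense gene Dlx1as, which averaged 1.304 CPM against 18.7 CPM for Dlx1. The files do not state whether counting used strand, so reads of such partners cannot be told apart.

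Six3, a homeobox gene that spiny neurons of the indirect pathway need, fell in 2+6[8]10 and was not called in the other untreated comparisons. Six3 had 71.6, 79.1 and 83.96 CPM in zQ175 mice of 2[4]6, against 70.8, 77.5 and 83.01 CPM in wild-type mice. Six3 in 6[4]10 ran at 56.4, 70.3 and 90.4 CPM in zQ175 mice, against 67.1, 79 and 82.5 CPM in wild-type mice. Six3 in 2+6[8]10 ran at 60.7, 70.8 and 82.4 CPM in zQ175 mice, against 69.7, 85.5 and 97.02 CPM in wild-type mice. The ranges overlapped in all 3 strategies. Six3 had log2 fold changes of 0.04 ± 0.05 in 2[4]6, -0.09 ± 0.07 in 6[4]10 and -0.23 ± 0.06 in 2+6[8]10 (SE; edgeR, adjusted p = 0.6, 0.35 and 0.0021). The difference of the genotype effect between 2+6[8]10 and 2[4]6 was -0.26 ± 0.09 and did not pass (edgeR, adjusted p = 0.22). Six3 shares exon bases with the opposite-strand gene Six3os1, which averaged 21.96 CPM against 77.7 CPM for Six3.

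Sox11 had the largest genotype difference of all members in untreated mice of 2[4]6. It is an HMG-box factor of newborn and growing neurons. Sox11 had 27.03, 29.2 and 32.7 CPM in zQ175 mice of 2[4]6, against 15.5, 16.8 and 23.2 CPM in wild-type mice. Sox11 in 6[4]10 ran at 21.6, 24.02 and 25.5 CPM in zQ175 mice, against 12.6, 16.2 and 18.1 CPM in wild-type mice. Sox11 in 2+6[8]10 ran at 22.7, 25.9 and 27.7 CPM in zQ175 mice, against 13.8, 16.01 and 22.1 CPM in wild-type mice. Every untreated zQ175 library was above every wild-type library of its strategy. Sox11 rose, with log2 fold changes of 0.74 ± 0.08 in 2[4]6, 0.57 ± 0.09 in 6[4]10 and 0.60 ± 0.09 in 2+6[8]10 (SE; edgeR, adjusted p = 1e-09, 8.7e-07 and 5.5e-07). Over the 9 sets its log2 fold change ran from 0.46 to 0.74.

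Sox4 belongs to the same SoxC family. Sox4 had 22.4, 24.7 and 28.5 CPM in zQ175 mice of 2[4]6, against 21.9, 22.9 and 26.9 CPM in wild-type mice. Sox4 in 6[4]10 ran at 17.1, 23.9 and 27.4 CPM in zQ175 mice, against 13.9, 19.2 and 23.8 CPM in wild-type mice. Sox4 in 2+6[8]10 ran at 19.4, 23.5 and 28.97 CPM in zQ175 mice, against 16.8, 19.8 and 29.7 CPM in wild-type mice. The ranges overlapped in all 3 strategies. Sox4 had log2 fold changes of 0.12 ± 0.07 in 2[4]6, 0.27 ± 0.10 in 6[4]10 and 0.17 ± 0.11 in 2+6[8]10 (SE; edgeR, adjusted p = 0.19, 0.027 and 0.22), was above 0 in 9 of the 9 sets and was called higher in 4. The untreated call in 6[4]10 ended without replicate 1, 3 or 4 (edgeR, adjusted p = 0.069, 0.099 and 0.062). Of the 9 neuroblast markers, Dcx and Stmn2 were called higher in each untreated comparison and the other 7 were not. Of all genes, 15.3%, 19.2% and 17.1% were called higher in 2[4]6, 6[4]10 and 2+6[8]10. The 9 markers summed to 427 to 526.4 CPM per zQ175 library and to 365 to 477 CPM per wild-type library. Dcx, a microtubule protein of migrating young neurons, had log2 fold changes of 0.53 ± 0.11 in 2[4]6, 0.29 ± 0.09 in 6[4]10 and 0.40 ± 0.09 in 2+6[8]10 (SE; edgeR, adjusted p = 0.00021, 0.012 and 0.00033), and its part in the rise of Sox11 was not tested.

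Pax6, a paired-box factor of cortical progenitors, rose. Pax6 had 8.29, 10.5 and 12.1 CPM in zQ175 mice of 2[4]6, against 7.35, 7.99 and 8.96 CPM in wild-type mice. Pax6 in 6[4]10 ran at 11.01, 12.1 and 14.3 CPM in zQ175 mice, against 7.88, 8.46 and 11.3 CPM in wild-type mice. Pax6 in 2+6[8]10 ran at 12.2, 12.5 and 15.8 CPM in zQ175 mice, against 6.75, 7.87 and 10.1 CPM in wild-type mice. The ranges were apart in 2+6[8]10, and in 6[4]10 they met at a single wild-type library of 11.3 CPM. Pax6 had log2 fold changes of 0.35 ± 0.07 in 2[4]6, 0.49 ± 0.07 in 6[4]10 and 0.66 ± 0.09 in 2+6[8]10 (SE; edgeR, adjusted p = 9.5e-05, 6.3e-07 and 2.5e-08) and was called higher in 8 of the 9 sets, the exception being mice given HTT-10150 in 2[4]6 at 0.18 ± 0.07 (SE; edgeR, adjusted p = 0.057).

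Emx2, a homeobox factor that patterns the cortex and hippocampus, showed the largest rise at 10 months. Emx2 had 6.57, 6.97 and 7.59 CPM in zQ175 mice of 2[4]6, against 4.40, 6.00 and 6.96 CPM in wild-type mice. Emx2 in 6[4]10 ran at 8.57, 11.3 and 13.5 CPM in zQ175 mice, against 5.75, 6.61 and 7.19 CPM in wild-type mice. Emx2 in 2+6[8]10 ran at 11.2, 12.6 and 13.7 CPM in zQ175 mice, against 5.72, 7.08 and 9.22 CPM in wild-type mice. All 16 untreated zQ175 libraries collected at 10 months were above the wild-type libraries of their strategy, and in 2[4]6 the ranges overlapped between 6.57 and 6.96 CPM. Emx2 had log2 fold changes of 0.25 ± 0.10 in 2[4]6, 0.79 ± 0.08 in 6[4]10 and 0.83 ± 0.09 in 2+6[8]10 (SE; edgeR, adjusted p = 0.064, 1.2e-10 and 3.6e-10). Under NTC they were 0.33 ± 0.11 in 2[4]6, 0.96 ± 0.08 in 6[4]10 and 0.82 ± 0.09 in 2+6[8]10 (SE; edgeR, adjusted p = 0.013, 3.1e-13 and 4.4e-10), and under HTT-10150 0.46 ± 0.11 in 2[4]6, 0.65 ± 0.08 in 6[4]10 and 0.79 ± 0.10 in 2+6[8]10 (SE; edgeR, adjusted p = 0.00052, 1.5e-08 and 3.9e-09).

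The untreated genotype effect on Emx2 was larger in 6[4]10 than in 2[4]6 by 0.53 ± 0.14 and larger in 2+6[8]10 than in 2[4]6 by 0.59 ± 0.14 on the log2 scale (SE; edgeR over all libraries, adjusted p = 0.034 and 0.049). Emx2 was the only member called in these differences, and 0.835% and 0.0675% of all genes were. Between the 10-month strategies the effect differed by 0.05 ± 0.13 (adjusted p = 0.98, 0.0123% of genes called). Age and cohort cannot be told apart in the differences from 2[4]6. Both calls were near the threshold: without replicate 1, 2 or 3 the adjusted p was 0.20, 0.10 and 0.19 for 6[4]10 minus 2[4]6 and 0.33, 0.094 and 0.43 for 2+6[8]10 minus 2[4]6. Without the 29 libraries with cortical or choroid markers it was 0.029 and 0.22. Untreated wild-type Emx2 was then itself called higher in 2+6[8]10 than in 2[4]6, by 0.40 (adjusted p = 0.023).

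The same differences in NTC-treated mice, which are other animals, were 0.63 ± 0.14 and 0.49 ± 0.14 (SE; edgeR, adjusted p = 0.011 and 0.018, with 0.411% and 4.87% of all genes called). Pax6 was also called in the second of them, at 0.36 ± 0.11 (SE; edgeR, adjusted p = 0.04). Without each replicate number in turn, the adjusted p of Emx2 was 0.026 to 0.17 for the first and 0.031 to 0.15 for the second, and the call of Pax6 ended whichever number was left out (adjusted p = 0.052 to 0.44). In mice given HTT-10150 the Emx2 differences were 0.19 ± 0.14 and 0.34 ± 0.14 (adjusted p = 0.60 and 0.33), with 0.620% and 0.417% of genes called. Comparing treated cohorts in this way was chosen after the untreated values were seen.

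Emx2 shares 264 exon bases with Emx2os, the RNA transcribed from its opposite strand. Over all treatments Emx2os had 2.61, 5.95 and 9.08 CPM in 72 zQ175 libraries, against 1.22, 2.12 and 3.68 CPM in 71 wild-type libraries. Emx2 itself had 5.46, 10.7 and 17.02 CPM in zQ175 libraries, against 4.05, 6.45 and 9.23 CPM in wild-type libraries. Emx2os rose in untreated zQ175 mice by log2 fold changes of 0.98 ± 0.14 in 2[4]6, 1.43 ± 0.12 in 6[4]10 and 1.41 ± 0.12 in 2+6[8]10 (SE; edgeR, adjusted p = 1.1e-07, 2.9e-13 and 7.3e-14), each a larger fold change than that of Emx2. Which strand the Emx2 reads came from was not tested.

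**Figure D3:**
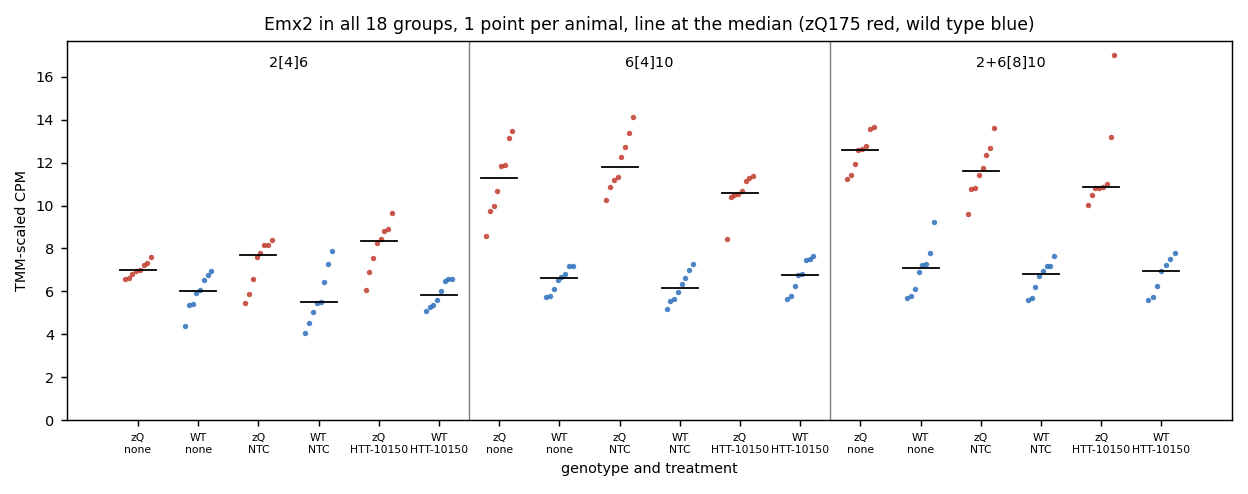
Emx2 in TMM-scaled CPM in each of the 18 groups, 1 point per animal with a line at the median, zQ175 (zQ, red) left of wild type (WT, blue), treatments within strategy. Wild-type medians lie at or below 7.08 CPM in all 9 groups, zQ175 medians between 6.97 and 8.36 CPM in 2[4]6 and between 10.6 and 12.59 CPM in the 10-month strategies.

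Bcl11a (Ctip1), the paralogue of Bcl11b, rose in all 9 sets by small steps. Bcl11a had 72.9, 76 and 83.1 CPM in zQ175 mice of 2[4]6, against 60.4, 67.3 and 72.7 CPM in wild-type mice. Bcl11a in 6[4]10 ran at 66.8, 73.7 and 80.3 CPM in zQ175 mice, against 50.7, 64.3 and 70.4 CPM in wild-type mice. Bcl11a in 2+6[8]10 ran at 66.6, 74.1 and 78.97 CPM in zQ175 mice, against 58.9, 64.4 and 69.1 CPM in wild-type mice. The genotypes were apart in 2[4]6 by less than 1 CPM and overlapped at 10 months. Bcl11a had log2 fold changes of 0.20 ± 0.04 in 2[4]6, 0.20 ± 0.05 in 6[4]10 and 0.18 ± 0.04 in 2+6[8]10 (SE; edgeR, adjusted p = 0.00011, 0.00049 and 0.00029).

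Foxp4, a forkhead paralogue of Foxp1, likewise rose in all 9 sets. Foxp4 had 28.7, 32.95 and 35.3 CPM in zQ175 mice of 2[4]6, against 24.01, 27.3 and 30.03 CPM in wild-type mice. Foxp4 in 6[4]10 ran at 30.3, 34.7 and 40.8 CPM in zQ175 mice, against 23.2, 28.8 and 32.6 CPM in wild-type mice. Foxp4 in 2+6[8]10 ran at 24.5, 31.8 and 36.8 CPM in zQ175 mice, against 21.9, 24.8 and 30.01 CPM in wild-type mice. The ranges overlapped in each strategy, although each zQ175 median lay above the highest wild-type library. Foxp4 had log2 fold changes of 0.24 ± 0.07 in 2[4]6, 0.28 ± 0.06 in 6[4]10 and 0.32 ± 0.06 in 2+6[8]10 (SE; edgeR, adjusted p = 0.0051, 7.8e-05 and 1.6e-05). Foxp2, the third forkhead member, had group medians of 76.9 to 83.4 CPM in untreated zQ175 mice and of 78.5 to 85.9 CPM in wild-type mice, and was not called in any untreated comparison. It was called lower in treated mice of 2+6[8]10, at -0.13 ± 0.05 (SE; edgeR, adjusted p = 0.044) with NTC and at -0.17 ± 0.06 (SE; edgeR, adjusted p = 0.017) with HTT-10150.

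Meis1, the paralogue of Meis2, rose in all 3 untreated comparisons and in 7 of the 9 sets. Meis1 had 19.4, 23.5 and 25.7 CPM in zQ175 mice of 2[4]6, against 17.5, 18.1 and 21.8 CPM in wild-type mice. Meis1 in 6[4]10 ran at 17.6, 20.4 and 23.97 CPM in zQ175 mice, against 15.2, 16.7 and 18.3 CPM in wild-type mice. Meis1 in 2+6[8]10 ran at 20.6, 22.8 and 24.01 CPM in zQ175 mice, against 16, 19.6 and 20.7 CPM in wild-type mice. Each zQ175 median was above the highest wild-type library, and the ranges overlapped. Meis1 had log2 fold changes of 0.29 ± 0.07 in 2[4]6, 0.30 ± 0.08 in 6[4]10 and 0.27 ± 0.07 in 2+6[8]10 (SE; edgeR, adjusted p = 0.0011, 0.0019 and 0.0016). Pbx3, the TALE partner of Meis proteins, averaged 58.98 CPM over all libraries, was above 0 in 9 of the 9 sets and was called in 1 of them, NTC-treated mice of 6[4]10, at 0.19 ± 0.05 (SE; edgeR, adjusted p = 0.0015).

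The paralogues were set against each other within each library, as a ratio of CPM that does not depend on the scaling of the library. The member that fell was set over the one that rose, except for Sox4 over Sox11, where neither fell. These ratios were chosen after the fold changes were seen and are given as a description, with no test, since the choice fixes their direction. Bcl11b over Bcl11a was 2.79, 3.86 and 4.765 in the 72 zQ175 libraries, against 4.772, 6.17 and 7.99 in the 71 wild-type libraries. No zQ175 library of any age or treatment therefore reached the lowest wild-type library, although neither gene alone separated the genotypes in every set. Foxp1 over Foxp4 was 5.72, 8.34 and 11.8 in zQ175 libraries, against 9.95, 13.9 and 18.02 in wild-type libraries. Meis2 over Meis1 was 14.4, 17.99 and 23.9 in zQ175 libraries, against 20.6, 27.01 and 33.97 in wild-type libraries. Both of these ratios overlapped between the genotypes at their ends. Sox4 over Sox11 was 0.706, 0.93 and 1.35 in zQ175 libraries, against 0.869, 1.19 and 1.65 in wild-type libraries. The log2 fold changes of Sox4 and of Sox11 were both above 0 in 9 of the 9 sets.

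**Figure D4:**
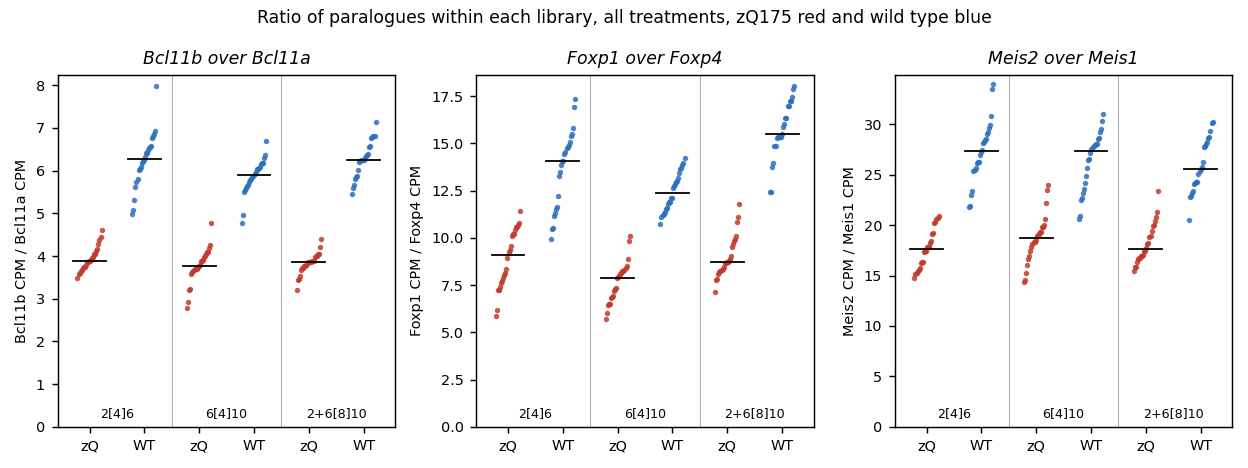
Ratio of the CPM of a member over that of its paralogue within each library, all treatments, 1 point per animal with a line at the median, zQ175 (zQ, red) left of wild type (WT, blue) in each strategy. The Bcl11b over Bcl11a points of zQ175 end at 4.765 and those of wild type start at 4.772.

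Within the Dlx clusters, Dlx6 over Dlx5 was 1.10, 1.36 and 1.66 in zQ175 libraries, against 1.33, 1.67 and 2.13 in wild-type libraries. Dlx1 over Dlx2 was 2.47, 3.12 and 4.15 in zQ175 libraries, against 2.90, 3.95 and 5.97 in wild-type libraries. These ratios too were chosen after the fold changes were seen and were not tested, and their ranges overlapped between the genotypes.

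Zfhx4, a large homeodomain and zinc finger factor, rose in 7 of the 9 sets. Zfhx4 had 19.3, 21.7 and 26.7 CPM in zQ175 mice of 2[4]6, against 16.8, 18.4 and 20.1 CPM in wild-type mice. Zfhx4 in 6[4]10 ran at 13.3, 22.2 and 25.7 CPM in zQ175 mice, against 17.03, 19.3 and 21.1 CPM in wild-type mice. Zfhx4 in 2+6[8]10 ran at 20.1, 24.9 and 27.8 CPM in zQ175 mice, against 17.4, 20.8 and 23.1 CPM in wild-type mice. The ranges overlapped, with a zQ175 library of 6[4]10 at 13.3 CPM, below all wild-type libraries. Zfhx4 had log2 fold changes of 0.28 ± 0.06 in 2[4]6, 0.15 ± 0.08 in 6[4]10 and 0.24 ± 0.07 in 2+6[8]10 (SE; edgeR, adjusted p = 0.0006, 0.15 and 0.0093). Its call in 2+6[8]10 ended without the 29 libraries named above, at 0.16 (edgeR, adjusted p = 0.15). Zfhx3, its relative, averaged 31.6 CPM and was called higher in 2 of the 9 sets, neither of them untreated, at 0.29 ± 0.08 (SE; edgeR, adjusted p = 0.0052) with HTT-10150 in 2[4]6 and at 0.20 ± 0.07 (SE; edgeR, adjusted p = 0.032) with NTC in 6[4]10.

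Isl1, a LIM homeodomain factor of direct-pathway and cholinergic neurons, was above 0 in 9 of the 9 sets and was called higher in 4. Isl1 had 16.4, 19.5 and 22.6 CPM in zQ175 mice of 2[4]6, against 14.6, 16.4 and 17.6 CPM in wild-type mice. Isl1 in 6[4]10 ran at 13.5, 19.8 and 21.4 CPM in zQ175 mice, against 14.7, 16.6 and 19.02 CPM in wild-type mice. Isl1 in 2+6[8]10 ran at 17.2, 19.2 and 21.5 CPM in zQ175 mice, against 15.6, 17.6 and 22.2 CPM in wild-type mice. The ranges overlapped in each strategy. Isl1 had log2 fold changes of 0.27 ± 0.07 in 2[4]6, 0.23 ± 0.09 in 6[4]10 and 0.08 ± 0.07 in 2+6[8]10 (SE; edgeR, adjusted p = 0.0011, 0.047 and 0.4). The call in 6[4]10 ended whichever replicate number was left out (edgeR, adjusted p = 0.051 to 0.17) and in DESeq2 (adjusted p = 0.056).

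Ebf1, a factor of direct-pathway spiny neurons, was called in 1 of the 9 sets. Ebf1 had 21.7, 23.9 and 28.1 CPM in zQ175 mice of 2[4]6, against 20.6, 22.4 and 25.1 CPM in wild-type mice. Ebf1 in 6[4]10 ran at 19.1, 25.2 and 29.2 CPM in zQ175 mice, against 18.6, 21.99 and 25.1 CPM in wild-type mice. Ebf1 in 2+6[8]10 ran at 22.4, 23.5 and 27.9 CPM in zQ175 mice, against 20.2, 23.2 and 26.7 CPM in wild-type mice. Both genotypes overlapped widely. Ebf1 had log2 fold changes of 0.11 ± 0.06 in 2[4]6, 0.18 ± 0.07 in 6[4]10 and 0.04 ± 0.06 in 2+6[8]10 (SE; edgeR, adjusted p = 0.15, 0.049 and 0.58), and the call in 6[4]10 ended in DESeq2 (adjusted p = 0.063) and without replicate 1, 2 or 3 (edgeR, adjusted p = 0.44, 0.11 and 0.10).

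Ikzf2 (Helios), a zinc finger factor of the Ikaros family, was called higher in 3 of the 9 sets. Ikzf2 had 3.01, 3.52 and 3.72 CPM in zQ175 mice of 2[4]6, against 2.25, 2.99 and 3.28 CPM in wild-type mice. Ikzf2 in 6[4]10 ran at 2.93, 3.39 and 4.39 CPM in zQ175 mice, against 2.11, 2.79 and 3.62 CPM in wild-type mice. Ikzf2 in 2+6[8]10 ran at 2.47, 3.43 and 5.04 CPM in zQ175 mice, against 2.38, 3.25 and 3.99 CPM in wild-type mice. The genotypes overlapped throughout. Ikzf2 had log2 fold changes of 0.23 ± 0.10 in 2[4]6, 0.35 ± 0.11 in 6[4]10 and 0.13 ± 0.13 in 2+6[8]10 (SE; edgeR, adjusted p = 0.072, 0.013 and 0.45), and the call in 6[4]10 ended without replicate 2 or 3 (edgeR, adjusted p = 0.087 and 0.10). Ikzf1 (Ikaros) averaged 8.41 CPM and was called in none of the 9 sets.

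The factors of the medial ganglionic eminence were at or below wild type. Lhx6, a LIM homeodomain factor of somatostatin and parvalbumin interneurons, was called lower in 2 of the 9 sets. Lhx6 had 16.6, 19.98 and 22.2 CPM in zQ175 mice of 2[4]6, against 19.1, 21.01 and 23.2 CPM in wild-type mice. Lhx6 in 6[4]10 ran at 16.3, 19.1 and 23.98 CPM in zQ175 mice, against 19.4, 20.9 and 21.8 CPM in wild-type mice. Lhx6 in 2+6[8]10 ran at 16.6, 18.98 and 19.8 CPM in zQ175 mice, against 19.1, 20.1 and 23.9 CPM in wild-type mice. The zQ175 medians were lower in each strategy and the ranges overlapped. Lhx6 had log2 fold changes of -0.07 ± 0.05 in 2[4]6, -0.08 ± 0.07 in 6[4]10 and -0.16 ± 0.05 in 2+6[8]10 (SE; edgeR, adjusted p = 0.28, 0.42 and 0.014). The call in 2+6[8]10 ended without replicate 3 or 4 (edgeR, adjusted p = 0.097 and 0.088) and without the 29 libraries (adjusted p = 0.071).

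Nkx2-1, which starts the interneuron and cholinergic lineages, averaged 8.52 CPM and was below 0 in 9 of the 9 sets. It was called in 2 of them, NTC-treated mice of 2+6[8]10 at -0.30 ± 0.09 (SE; edgeR, adjusted p = 0.0086) and mice given HTT-10150 in 2+6[8]10 at -0.25 ± 0.10 (SE; edgeR, adjusted p = 0.04). Lhx8, a factor of cholinergic neurons, averaged 9.57 CPM, was below 0 in 9 of the 9 sets with log2 fold changes of -0.24 to -0.02, and was called in none. Among 5 cholinergic markers, 3, 5 and 3 were called lower in untreated zQ175 mice of 2[4]6, 6[4]10 and 2+6[8]10, of which Gbx2 at -0.68 ± 0.21 in 6[4]10 and Slc5a7 at -0.37 ± 0.09 in 6[4]10 moved most, followed by Chat at -0.31 ± 0.09 and Slc18a3 at -0.30 ± 0.09 in 6[4]10 (SE; edgeR, adjusted p = 0.010, 0.0019, 0.0032 and 0.011). The sum of this list was 58.9 to 114 CPM per zQ175 library and 87.5 to 133.4 CPM per wild-type library. Among 7 markers of GABAergic interneurons, 4, 3 and 3 were called lower, among them Th, Kit and Nos1 in each strategy and Npy in 2[4]6, and their sum was 284 to 377 CPM per zQ175 library and 331 to 423 CPM per wild-type library. Of all genes, 17.2%, 17% and 18.3% were called lower in untreated zQ175 mice of 2[4]6, 6[4]10 and 2+6[8]10, the background for both lists. The part of the cholinergic and interneuron markers in the fall of Lhx6 and Nkx2-1 was not tested.

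Of the remaining members, none was called in any of the 9 sets. Tshz1 and Tshz2, zinc finger factors of the Teashirt family, averaged 57.1 and 15.95 CPM, with log2 fold changes over the 9 sets of -0.08 to 0.09 for Tshz1 and of -0.08 to 0.20 for Tshz2. Mef2c, a MADS-box factor of neuronal maturation, averaged 150.9 CPM and ran from -0.16 to 0.16. Otx1, a homeobox factor of deep cortical layers, averaged 2.05 CPM and ran from -0.10 to 0.23. Sp8, a zinc finger factor of olfactory bulb interneurons, averaged 1.24 CPM and ran from -0.18 to 0.47. The SEs of these fold changes were 0.15 to 0.29 for Otx1 and Sp8, so differences of that size were not detectable at these counts. Gsx2, the progenitor factor, had 1047 counts over all 143 libraries and 0.0543 to 1.48 CPM per library, and entered the fit over all libraries only.

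HTT-10150 changed no member detectably. Htt itself was called lower in 2+6[8]10 only. In zQ175 mice its log2 fold change was -0.01 ± 0.05 in 2[4]6 and -0.32 ± 0.08 in 6[4]10 (SE; edgeR, adjusted p = 0.99 and 0.6). Against NTC, 0 of 32 members were called in zQ175 mice of 2[4]6, 6[4]10 or 2+6[8]10, where 0%, 0% and 3.16% of all genes were called, and 0 of 32 were called in wild-type mice, where 0.00636%, 0% and 0.0129% were. At an unadjusted p under 0.05 the counts were 3, 1 and 5 members in zQ175 mice, where 5.22%, 3.56% and 17% of all genes passed, and 2, 0 and 0 in wild-type mice, where 5.93%, 3.28% and 5.24% did. The interaction of genotype with HTT-10150 was called for 0 members in each strategy (0%, 0% and 0.529% of all genes), as was NTC against untreated in zQ175 mice (0% in each) and in wild-type mice (0%, 0% and 0.181%). At an unadjusted p under 0.05 the interaction gave 1, 3 and 3 members (2.53%, 4.27% and 12.2% of all genes), NTC in zQ175 mice 2, 3 and 2 (4.99%, 7.41% and 3.05%), and NTC in wild-type mice 2, 0 and 0 (2.01%, 2.5% and 11.4%). DESeq2 called 0 members in each of these comparisons except 2 under HTT-10150 in zQ175 mice of 2+6[8]10.

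In zQ175 mice of 2+6[8]10, 2 members came nearest to a call. Lhx6 had 16.4, 18.4 and 19.2 CPM with HTT-10150, against 18.7, 19.97 and 22.1 CPM with NTC. Zfhx4 had 19.6, 22.1 and 25.3 CPM with HTT-10150, against 23.7, 26.2 and 28.7 CPM with NTC. Both pairs of groups overlapped. The log2 fold change was -0.16 ± 0.05 (SE; edgeR, adjusted p = 0.057) for Lhx6 and -0.23 ± 0.07 (SE; edgeR, adjusted p = 0.057) for Zfhx4. DESeq2 called both (adjusted p = 0.032 for Lhx6 and 0.029 for Zfhx4). Wild-type mice given NTC in this strategy had 16.9, 20.8 and 23.3 CPM of Zfhx4 and 19.4, 21.9 and 23.5 CPM of Lhx6, so that with HTT-10150 the zQ175 median of Zfhx4 was nearer to the wild-type median and that of Lhx6 farther from it. Of the 7 members called in all 9 genotype sets, log2 fold changes under HTT-10150 in these mice were -0.02 ± 0.05 for Bcl11b, -0.01 ± 0.05 for Foxp1, -0.09 ± 0.04 for Meis2, 0.04 ± 0.06 for Lhx2, 0.05 ± 0.09 for Sox11, 0.11 ± 0.06 for Foxp4 and -0.05 ± 0.04 for Bcl11a (SE). A p that misses the threshold does not show that there was no effect.

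**Figure D5:**
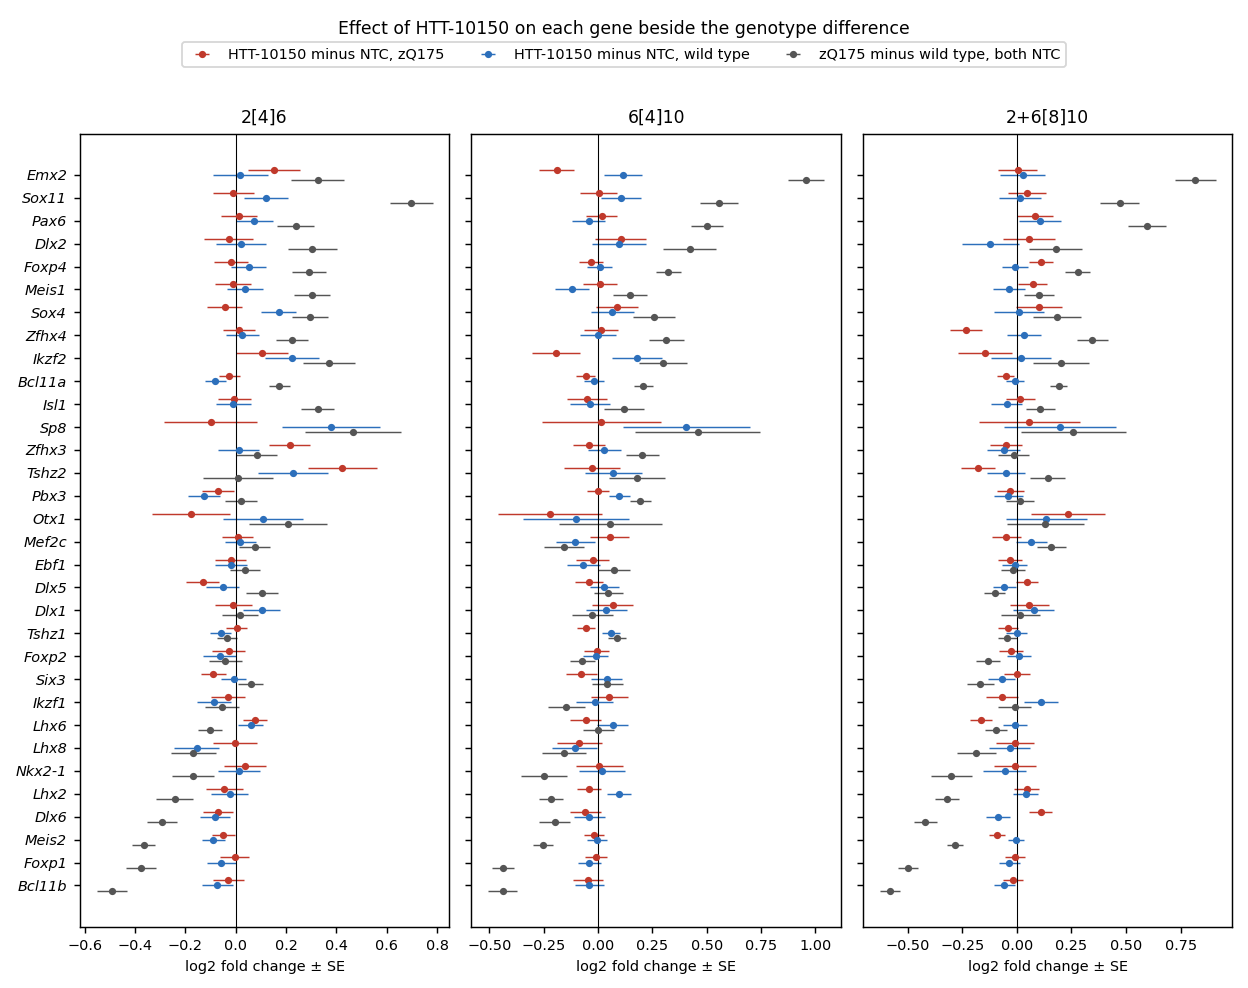
Log2 fold change ± SE of HTT-10150 over NTC in zQ175 (red) and wild-type (blue) mice, beside that of zQ175 over wild type with both given NTC (grey), for the 32 tested members in each strategy. The siRNA points lie around 0 where the grey points of Emx2, Sox11, Pax6, Foxp1 and Bcl11b lie far from it. The siRNA and grey values share the NTC animals.

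Wild-type mice without treatment gave few calls between the cohorts of the strategies. In 6[4]10 against 2[4]6, Sox4 at -0.28 ± 0.10 (SE; edgeR, adjusted p = 0.03) and Mef2c at -0.22 ± 0.08 (SE; edgeR, adjusted p = 0.033) were called, 2 of 33 members where 16.6% of all genes were. Zfhx3 was the member called in 2+6[8]10 against 2[4]6, at 0.30 ± 0.08 (SE; edgeR, adjusted p = 0.0056), where 15% of all genes were. Foxp4 was called between the 10-month strategies, 2+6[8]10 against 6[4]10, at -0.19 ± 0.06 (SE; edgeR, adjusted p = 0.031), where 13.1% of all genes were. Age and cohort cannot be told apart in the comparisons with 2[4]6. The 10-month strategies were collected at the same age, so their comparison is between cohorts and not ages. Each of the 4 calls ended when some replicate number was left out (edgeR): Sox4 with any of the 4, at an adjusted p of 0.052 to 0.19, Mef2c without replicate 1 or 2, at 0.44 and 0.13, Zfhx3 without replicate 3 or 4, at 0.092 and 0.15, and Foxp4 without replicate 2, 3 or 4, at 0.13, 0.10 and 0.29. Without replicate 1, the Mef2c log2 fold change was -0.11.

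Libraries of a group differ among themselves, and pairs of members were compared in that spread, after the mean of each group and sex had been removed, in 39 correlations (13 pairs in 3 strategies). Bcl11b and Foxp1 varied together most closely, with Pearson's r of 0.819, 0.885 and 0.835 and Spearman's rho of 0.776, 0.884 and 0.814 in 2[4]6, 6[4]10 and 2+6[8]10 (48, 48 and 47 libraries, permutation test, p = 1e-05, the smallest that 100000 permutations give, adjusted p = 4.9e-05). Without the 2 libraries farthest from the median of Bcl11b, r was 0.727, 0.863 and 0.797. Sox11 followed Dcx with r of 0.754, 0.423 and 0.729 and rho of 0.755, 0.346 and 0.746 (permutation test, adjusted p = 4.9e-05, 0.0055 and 4.9e-05), and r of 0.723, 0.399 and 0.688 without 2 libraries. Dlx1 and Dlx2 had r of 0.494, 0.516 and 0.603 and rho of 0.407, 0.568 and 0.642 (adjusted p = 0.00085, 0.00049 and 4.9e-05), and Lhx8 and Nkx2-1 r of 0.439, 0.604 and 0.526 and rho of 0.384, 0.515 and 0.438 (adjusted p = 0.0038, 4.9e-05 and 0.00049). Without 2 libraries these were 0.424, 0.487 and 0.637 for the Dlx genes and 0.373, 0.565 and 0.432 for Lhx8 and Nkx2-1. Sox4 and Sox11 had r of 0.393, 0.518 and 0.640 and rho of 0.385, 0.421 and 0.555 (adjusted p = 0.0096, 0.00049 and 4.9e-05), and 0.374, 0.426 and 0.592 without 2 libraries. The permutation p of rho was at most 0.017 in these relations. Values of a pair share a library, its depth and its dissection. Residuals were permuted over all libraries of a strategy with no allowance for the means removed, so the permutation p-values may be too small.

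Other pairs held in some strategies and not in others. Dlx5 and Dlx6 had r of 0.447 and 0.581 in 2[4]6 and 6[4]10 (permutation test, adjusted p = 0.0032 and 7.8e-05) and of 0.155 in 2+6[8]10 (adjusted p = 0.36), with rho of 0.496, 0.523 and 0.191 and r of 0.459, 0.488 and 0.016 without 2 libraries. Meis2 and Six3 had r of 0.620, 0.417 and 0.206 and rho of 0.528, 0.163 and 0.198 (adjusted p = 7.8e-05, 0.0075 and 0.22), and the value in 6[4]10 rested on 2 libraries, without which it was 0.138. Otx1 followed summed cortical markers with r of 0.310, 0.518 and 0.437 and rho of 0.296, 0.436 and 0.464 (adjusted p = 0.054, 0.00049 and 0.0045), and r of 0.327, 0.439 and 0.493 without 2 libraries. Ikzf1 followed summed microglia markers in 6[4]10 alone, with r of 0.065, 0.529 and 0.123 and rho of 0.082, 0.472 and 0.098 (adjusted p = 0.71, 0.00049 and 0.48), and r of 0.480 there without 2 libraries. Lhx6 and Nkx2-1 passed in 6[4]10 alone, with r of 0.417 and rho of 0.480 (adjusted p = 0.0066), and r of 0.458 without 2 libraries. Isl1 with Lhx8 and Tshz2 with cortical markers passed in no strategy.

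Related regulators that are no members were counted in untreated mice. Of 46 further factors of the ventral forebrain, 41 were tested, and 2 were called higher and 11 lower in 2[4]6, 2 and 9 in 6[4]10, and 1 and 9 in 2+6[8]10. Of all genes, 15.3% were called higher and 17.2% lower in 2[4]6, 19.2% and 17% in 6[4]10, and 17.1% and 18.3% in 2+6[8]10, the background for these and the following lists. Rxrg, a retinoid receptor, had log2 fold changes of -0.88 ± 0.10, -0.68 ± 0.08 and -0.72 ± 0.07, and Foxo1, a forkhead factor, -0.57 ± 0.07, -0.51 ± 0.07 and -0.57 ± 0.06 in the 3 strategies (SE; edgeR, adjusted p at most 3.3e-07). Gbx1 and Gbx2, homeobox relatives, reached -0.70 ± 0.23 and -0.68 ± 0.21 in 6[4]10 (adjusted p = 0.014 and 0.010). The median log2 fold change of the ventral list was -0.04, -0.07 and -0.07, against 0.00, 0.01 and 0.00 over all genes.

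Of 20 further factors of the dorsal forebrain, 15 were tested, and 1 was called higher and 1 lower in 2[4]6, 2 and 2 in 6[4]10, and 2 and 3 in 2+6[8]10. Cux2, an upper-layer cortical factor, was called higher in each, at 0.36 ± 0.11, 0.27 ± 0.11 and 0.43 ± 0.12 (SE; edgeR, adjusted p = 0.010, 0.041 and 0.0039). Bhlhe22 was called at 0.83 ± 0.24 in 6[4]10 and 0.75 ± 0.26 in 2+6[8]10, Id2 in each at -0.25 ± 0.07, -0.33 ± 0.08 and -0.25 ± 0.07, and Fezf2 at -0.56 ± 0.21 in 2+6[8]10 (SE; edgeR, adjusted p of 0.00071 to 0.035). Emx1, a cortical marker and the paralogue of Emx2, was not called, with log2 fold changes of -0.63 ± 0.46, 0.66 ± 0.65 and 0.12 ± 0.53 (edgeR, adjusted p = 0.31, 0.46 and 0.89). Summed cortical markers were 117 to 529 CPM per zQ175 library and 115.3 to 514.5 CPM per wild-type library.

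Of 6 antisense or divergent RNAs, Sox2ot beside Sox2, which is no member, and the others of members, 4 were tested. The table lists 2 gene IDs named Dlx6os1, transcribed beside Dlx6, and 1 of them held 76135 counts and the other 0. The first had medians of 28.3, 23.9 and 24.3 CPM in untreated zQ175 mice of 2[4]6, 6[4]10 and 2+6[8]10, against 30.15, 30.55 and 33.6 CPM in untreated wild-type mice, and log2 fold changes of -0.09 ± 0.07, -0.37 ± 0.07 and -0.46 ± 0.07 (SE; edgeR, adjusted p = 0.36, 6.4e-05 and 4.6e-07). Dlx1as was called in 2+6[8]10 at -0.59 ± 0.19 (edgeR, adjusted p = 0.011). Six3os1 was not called. Of the other marker lists, astrocyte markers were called lower for 2, 3 and 3 of 5, oligodendrocyte markers for 2, 3 and 3 of 5, endothelial markers for 3, 4 and 3 of 4 and microglial markers for 4, 2 and 1 of 7, with none called higher. Cortical markers were called lower for 1 of 8 in each strategy, Rspo1, and none of 5 ependymal and choroid or of 7 septal, pallidal and thalamic markers was called. Medium spiny neuron markers were called lower for 9 of 9 in each strategy, led by Penk at -1.25 ± 0.05, Pde10a at -1.04 ± 0.06, Adora2a at -1.05 ± 0.05 and Ppp1r1b at -0.81 ± 0.05 in 2+6[8]10 (SE; edgeR, adjusted p at most 8e-18). Each of these falls was larger on the log2 scale than that of Bcl11b, Foxp1 or Meis2 in the same mice.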

How the data were processed

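Striatal poly(A) RNA of 143 mice was measured. The authors deposited a table of expected counts per gene, made with RSEM on GRCm38 per the submitters' processing notes, and a table of TPM values, which its name calls FPKM although each column sums to 1000000. The RSEM version, aligner, annotation and counting strand are not stated in the labels or file headers used here. Of 41135 entries, 7 named no gene (5.91e-06% of counts) and were left out. Of the nonzero values, 78.2% were whole numbers exactly as written, and all were rounded. Total counts set the precision of low genes.

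Each strategy was fitted with all its groups and sex in edgeR 4.0.16 (R 4.3.3, limma 3.58.1): filterByExpr, which kept 15716, 15757 and 15506 genes in 2[4]6, 6[4]10 and 2+6[8]10, TMM scaling, and the robust quasi-likelihood F test with Benjamini-Hochberg adjustment at 0.05. Differences between strategies came from a fit over all libraries (16295 genes). The code was tested on simulated data. Residual correlations used log2 CPM with a prior count of 2 (alternative 0.5) and 100000 permutations, two-sided, in Python 3.11.15, numpy 2.4.6, scipy 1.17.1 and pandas 2.3.3. Overlapping genes were read from GENCODE M21.

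The members and lists were chosen with earlier results of these data known. All members are accounted for. Values by group are given for members called in at least 1 untreated genotype comparison and for the Dlx genes. Of the related and marker lists the 4 called genes with the largest fold change are named. Emx1 and Gbx2 stand on 2 lists each, and Rspo1 and Emx1 were named after their values were seen. Alternatives were DESeq2 1.42.0, RLE size factors, no filter, only the groups compared, no sex term, a replicate block, 1 fit over all libraries and leaving out each replicate number from 1 to 4. Leaving out the 29 libraries with cortical or choroid markers, covariates for these markers, and covariates for transcript length and GC content were added after the data were seen.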

Additional observations from a re-analysis of the deposited data

Results flagged for a closer look

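For 21 members, each untreated group of 8 was searched for a library whose gap to its nearest neighbour was large against the range of the group. Chance gives about 1 such group in 20, and 7 of 126 were found. In zQ175 mice of 6[4]10, Dlx6 was 37.3 CPM in male 2, with the next library at 30.6 CPM, and Isl1 was 13.5 CPM in male 4, with the next at 19.1 CPM. In zQ175 mice of 2+6[8]10, Pax6 was 15.8 CPM in male 3, with the next at 12.8 CPM. In wild-type mice of 6[4]10, female 1 stood apart in 3 members: Bcl11b was 297 CPM, with the next library at 397 CPM, Bcl11a was 50.7 CPM, with the next at 63.1 CPM, and Pax6 was 11.3 CPM, with the next at 9.29 CPM. Without replicate 1, which leaves out this mouse, Bcl11b, Bcl11a and Pax6 were still called in untreated mice of 6[4]10. In wild-type mice of 2[4]6, Sox4 was 26.9 CPM in female 2, with the next at 24.1 CPM.

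Emx2 is listed because its untreated genotype effect differed between strategies by a test of the difference itself, by 0.53 in 6[4]10 minus 2[4]6 and by 0.59 in 2+6[8]10 minus 2[4]6 on the log2 scale (edgeR, adjusted p = 0.034 and 0.049). The zQ175 median was above the wild-type median in each of the 3 strategies.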

How the results depend on the processing

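Of 130 called genotype values, none changed sign under any alternative. Without replicate 2, 19 lost their call, and without the 29 libraries with cortical or choroid markers 15 did. The fits of all replicates and libraries lost 2 to 9. The replicate block lost 2. It called 1 member (Lhx6) under HTT-10150 in zQ175 mice of 2+6[8]10, where the fit without it called 0, DESeq2 2, and the fit of only the groups compared 1. Replicate numbers were not used to pair the mice in the main fit. Same-numbered libraries of a sex had a median residual correlation of 0.0651, 0.0319 and 0.0283 in the 3 strategies. Libraries with other numbers had -0.029, -0.013 and -0.007. Of the same-numbered pairs, 42 of 120, 31 of 120 and 22 of 110 were over 0.1. These medians pool both genotypes and cannot show that no same-numbered mice were linked. Replicate numbers also do not follow the middle number that mice share in the library names. Whether mice with the same middle number deviated together was not tested. The difference of the genotype effect between 6[4]10 and 2[4]6 called 1 member, 0 in DESeq2 (which gave Emx2 no adjusted p), 0 without a filter and 2 without the 29 libraries. Between 2+6[8]10 and 2[4]6 it called 1, 0 without the sex term and 0 without the 29 libraries. Under NTC that difference called 2, 1 without a filter and 1 without the 29 libraries. Wild type in 6[4]10 against 2[4]6 called 2, and 1 without a filter. In 2+6[8]10 against 2[4]6 it called 1, 2 with the marker covariates and 3 without the 29 libraries, and in 2+6[8]10 against 6[4]10 it called 1, 4 and 2. The cause was not tested. Leaving out each replicate number gave 7 to 9 members higher in untreated mice of 6[4]10, 5 to 8 lower under NTC and 4 to 8 higher under HTT-10150 in 2+6[8]10, and 0 to 1 called for HTT-10150 in zQ175 mice of 2+6[8]10. For both differences between strategies that called Emx2 it gave 0 to 1, under NTC 0 to 1 and 0 to 2, and for the 3 wild-type comparisons 0 to 1, 0 to 2 and 0 to 1. The other counts stayed within 1.5 times. No correlation changed its side of the threshold with the other prior count. Depth limits Gsx2, Sp8, Otx1 and Ikzf2 most.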
